A study of Danio rerio with 6 samples.

Results

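The genes described are 10 factors of the AP-1 and immediate early response, chosen by symbol, out of 19822 genes in the deposited table. They are the Fos genes fosab, fosb, fosl1a and fosl2, the Jun genes jun, junba, junbb and jund, the related stress factor atf3, and egr1, a zinc finger immediate early factor outside the AP-1 family. All 10 were found, 1 row each, and all 10 had a mean normalised count of at least 1 and were tested. Poly(A) RNA came from caudal fins of wild-type AB zebrafish, 3 to 12 months old and of both sexes, taken 24 h after amputation and holding the regrown tissue plus 1 ray segment. The fish had been given the lactate dehydrogenase inhibitor Galloflavin at 0.12 mg per g of body weight in DMSO, or DMSO alone, by injection into the body cavity. Both groups underwent the same amputation, lidocaine and MS-222, and regenerated at 33 °C. Each group had 3 libraries, each a pool of 10 fins. A DMSO and a Galloflavin library shared each replicate mark in the sample titles (rep B1, B2 and B3), and each mark is treated here as a batch. The labels do not give the time of the injection, and no uninjured fin was in the data, so the levels below are not a measure of induction by injury.

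AP-1 is a family of leucine zipper transcription factors that bind DNA as dimers of a Fos and a Jun protein, and its best known members are encoded by immediate early genes, which injury and growth signals switch on without new protein synthesis. Jun proteins are activated by the kinase Jnk, and Junb proteins are phosphorylated by Jnk in the regenerating zebrafish fin. AP-1 binding motifs are common in enhancers that open in injured and regenerating tissue.

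The libraries held 17712157 to 29596335 reads in genes. Over the 11 epidermal markers, the summed normalised count was 83269 to 112220 under DMSO and 88697 to 111523 under Galloflavin, or 31472 to 41448 and 35246 to 43534 without the keratin gene krt5, which held most of it. By gene, 8 of the 11 were higher under Galloflavin, against 49.1% of all genes tested. The 3 lower ones were the keratin genes krt5, krt91 and krt4, with log2 fold changes of -0.11, -0.09 and -0.02. A further keratin gene, krt15, was higher (0.27). Of the 8, 5 (epcam, cldn1, cldni, cdh1 and evpla) were at an unadjusted limma p under 0.05, and 0 passed. Of all genes, 4.18% were higher at that p. The 12 mesenchyme and blastema markers in the table summed to 10030 to 10992 and 8838 to 13725. The 3 muscle markers in the table summed to at most 12.5. The library Galloflavin B2 stood apart in hypoxia response genes, 13 of which summed to 2788 against 649 to 1041 in the other 5 libraries. Members were read at 371 (atf3, DMSO B1) to 22274 reads (junba, Galloflavin B2), so that counting error was at most 5.19% of a member's value in any library. The libraries are of whole tissue, in which fewer cells of a type and less RNA per cell cannot be told apart.

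The comparison of Galloflavin with DMSO asks whether the inhibitor moved these factors in the early regenerate. None of the 10 genes passed an adjusted p of 0.05. Under Galloflavin 5 genes had a higher and 5 a lower mean log2 level, with log2 fold changes from -0.66 for fosab to 0.31 for jun and a median of -0.046, against -0.004 over all 15806 genes tested (limma on log2(normalised count + 1), Benjamini-Hochberg adjusted p = 0.737 to 0.998 for the members). The members' median ran from -0.27 without batch B1 to 0.21 without DMSO B2, so that its sign depended on single libraries. The share of all genes that passed was 0% as well, with a lowest adjusted p of 0.253. At an unadjusted p under 0.05 there were 0 of the 10 members and 1139 genes in all, 7.21% (4.18% higher and 3.03% lower). On the recovered reads, edgeR passed 0 genes and DESeq2 83 (58 higher and 25 lower), which is 0.525%, or 0.943% with batch as a block, with 0 members in each. The value ranges of the groups overlapped for all 10 members, while 13.4% of all genes had groups that did not overlap (6.97% higher and 6.47% lower). Most of the members varied more between libraries than most genes did. The SD of log2 values over the 6 libraries was above that of 98.9% of genes tested for fosab, 98.7% for fosb, 97.0% for egr1, 94.6% for junbb and 91.9% for fosl1a. The steadiest were fosl2 at 48.3% and junba at 51.8%, near the middle of all genes.

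**Figure D1:**
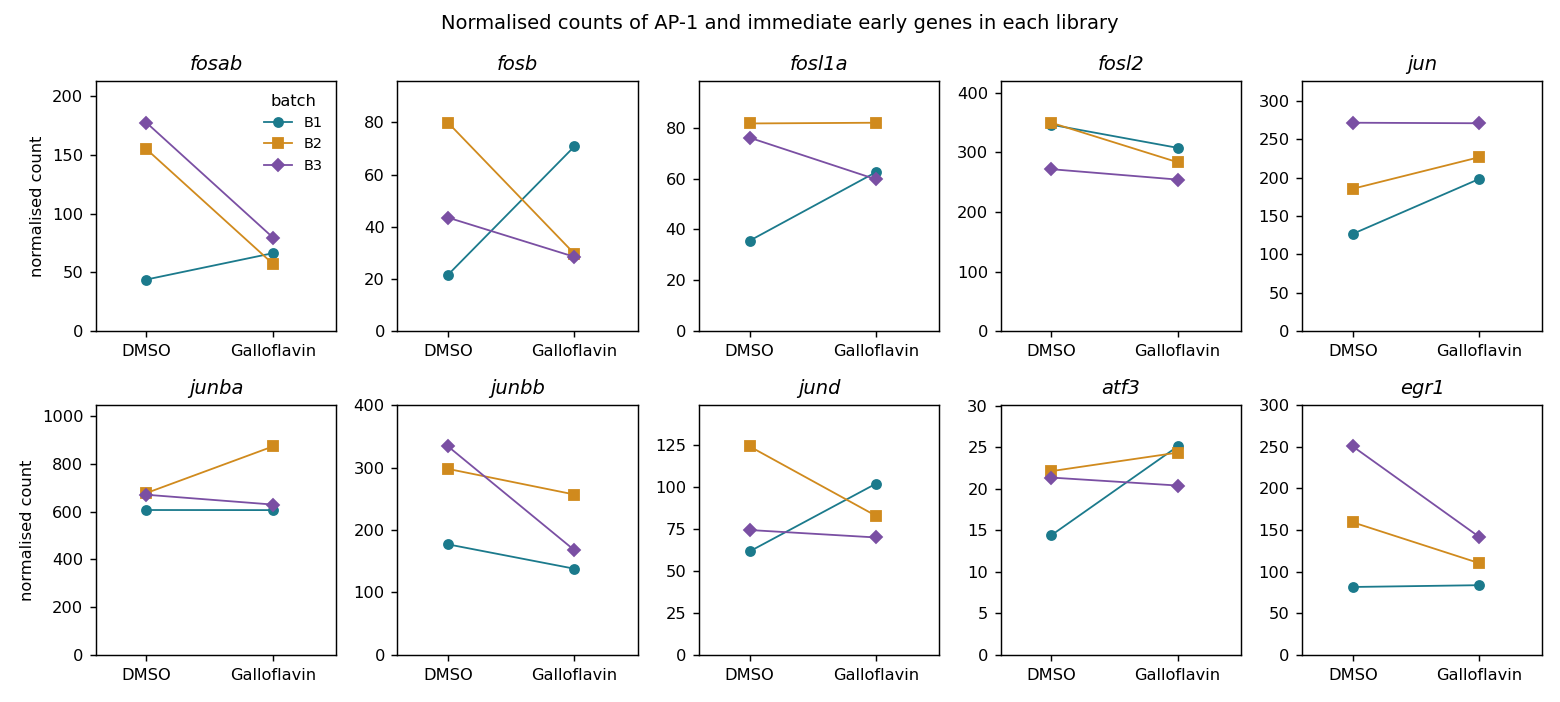
Normalised count (vertical axes, from 0) of each of the 10 genes in the 6 libraries, with a line joining the DMSO and the Galloflavin library of a batch and each symbol standing for 1 pool of 10 fins. For fosab the DMSO libraries B2 and B3 stand at 155 and 177, above the other 4 libraries at 44.0 to 79.8.

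Among the Fos genes, fosab (ENSDARG00000031683), the zebrafish counterpart of c-Fos, had 44.0, 155 and 177 normalised counts in the libraries of DMSO-treated fish, in the order B1, B2, B3 kept throughout. In the Galloflavin libraries it had 66.4, 57.4 and 79.8. Hence 2 DMSO libraries were high, while DMSO B1 was the lowest of all 6 and the Galloflavin libraries lay close together. The means were 125 ± 71.5 and 67.9 ± 11.3 (SD, n = 3), or -0.66 ± 0.49 on the log2 scale (SE; limma adjusted p = 0.806), which is a 0.633-fold level with a 95% interval of 0.287 to 1.40. The interval thus holds a large decrease and a moderate increase. The difference within a batch was 0.58 in B1, -1.42 in B2 and -1.14 in B3 on the log2 scale. Without DMSO B1 the fold change was -1.29, without DMSO B2 it was -0.39, and without DMSO B3 it was -0.30. It was -1.28 without the whole of batch B1 (limma adjusted p = 0.964).

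The gene fosb (ENSDARG00000055751), which like fosab is classed as an immediate early Fos gene, had 21.6, 79.9 and 43.5 normalised counts under DMSO and 70.8, 29.7 and 28.5 under Galloflavin. Its highest libraries were DMSO B2 and Galloflavin B1. The batch differences, at 1.67, -1.40 and -0.59, were the widest apart of the 10 members and had opposite signs. The fold change over the 6 libraries was -0.11 ± 0.51 (adjusted p = 0.981), and it was above 0 without DMSO B2 (0.34), Galloflavin B2 (0.09) or Galloflavin B3 (0.11). It was further below 0 without DMSO B1 (-0.58), Galloflavin B1 (-0.53) or the whole of batch B1 (-0.997, limma adjusted p = 0.964).

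The Fra-1 gene fosl1a (ENSDARG00000015355), whose mammalian counterpart is a late-induced Fos gene and an AP-1 target itself, had 35.6, 81.7 and 76.1 normalised counts under DMSO and 62.5, 82.0 and 59.7 under Galloflavin. Only DMSO B1 stood low, and the fold change of 0.15 ± 0.31 (adjusted p = 0.946) was -0.22 without that library. The Fra-2 gene fosl2 (ENSDARG00000040623) was steadier, with 346, 350 and 272 normalised counts under DMSO and 308, 283 and 254 under Galloflavin. It was lower under Galloflavin in all 3 batches, by 0.17, 0.30 and 0.10, although Galloflavin B1 and B2 lay above DMSO B3. The log2 fold change was -0.19 ± 0.13 (adjusted p = 0.786), a 0.877-fold level with a 95% interval of 0.711 to 1.08, and it was -0.31 without DMSO B3 and -0.12 without Galloflavin B3.

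Among the Jun genes, jun (ENSDARG00000043531), the main partner of Fos in AP-1, had 127, 185 and 271 normalised counts under DMSO and 198, 227 and 271 under Galloflavin. The 2 libraries of B3 were level with each other and were the highest, and in B1 and B2 the Galloflavin library was the higher by 0.64 and 0.29. The fold change was 0.31 ± 0.26 (adjusted p = 0.829) and came to 0.04 without DMSO B1, 0.19 without Galloflavin B3 and 0.58 without DMSO B3.

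The paralogs junba and junbb are both counterparts of mammalian JunB, and the difference between their fold changes was not tested. The gene junba (ENSDARG00000074378) had 606, 678 and 670 normalised counts under DMSO and 606, 873 and 629 under Galloflavin, so that 5 libraries were close and Galloflavin B2 was high. Its fold change of 0.09 ± 0.15 (adjusted p = 0.930) was -0.075 without Galloflavin B2, the library in which the hypoxia response genes were also highest; the part of that library's state in the value was not tested. The gene junbb (ENSDARG00000104773) had 177, 298 and 334 normalised counts under DMSO and 138, 257 and 168 under Galloflavin. In each batch the Galloflavin library was the lower, by 0.36, 0.21 and 0.99, but Galloflavin B2 exceeded DMSO B1. The means were 270 ± 82.1 and 187 ± 61.9, a log2 fold change of -0.52 ± 0.30 (adjusted p = 0.737), or 0.697-fold with a 95% interval of 0.431 to 1.13. It was -0.80 without DMSO B1, -0.77 without Galloflavin B2, -0.34 without DMSO B3 and -0.33 without Galloflavin B1. How the counting split reads between near-identical stretches of paralogs is not stated. The gene jund (ENSDARG00000067850), whose mammalian counterpart is the most constitutively expressed Jun gene, had 61.6, 124 and 74.3 normalised counts under DMSO and 101.8, 82.7 and 69.8 under Galloflavin. DMSO B2 was its highest library and DMSO B1 its lowest, and the fold change was 0.02 ± 0.26 (adjusted p = 0.998). It was -0.19 without DMSO B1, -0.12 without Galloflavin B1 and -0.06 without DMSO B3, but 0.31 without DMSO B2 and 0.15 without Galloflavin B3.

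Outside the Fos and Jun families, atf3 (ENSDARG00000007823), a stress-induced leucine zipper factor that pairs with Jun proteins and is also a target of the integrated stress response, was the lowest of the 10 in reads. It had 14.4, 22.1 and 21.4 normalised counts under DMSO and 25.1, 24.4 and 20.4 under Galloflavin, so that DMSO B1 was low and the other 5 libraries were close. Its fold change was 0.28 ± 0.18 (adjusted p = 0.767), and 0.09 without DMSO B1. The gene egr1 (ENSDARG00000037421), an immediate early target of serum response factor, had 81.6, 159 and 250.3 normalised counts under DMSO and 83.7, 110.2 and 142 under Galloflavin. The B1 libraries were level with each other and the lowest in their groups, and the DMSO libraries of B2 and B3 were above their Galloflavin partners by 0.53 and 0.82. The fold change was -0.44 ± 0.39 (adjusted p = 0.844), or 0.739-fold with a 95% interval of 0.392 to 1.39, and it was -0.86 without DMSO B1 and -0.06 without DMSO B3.

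**Figure D2:**
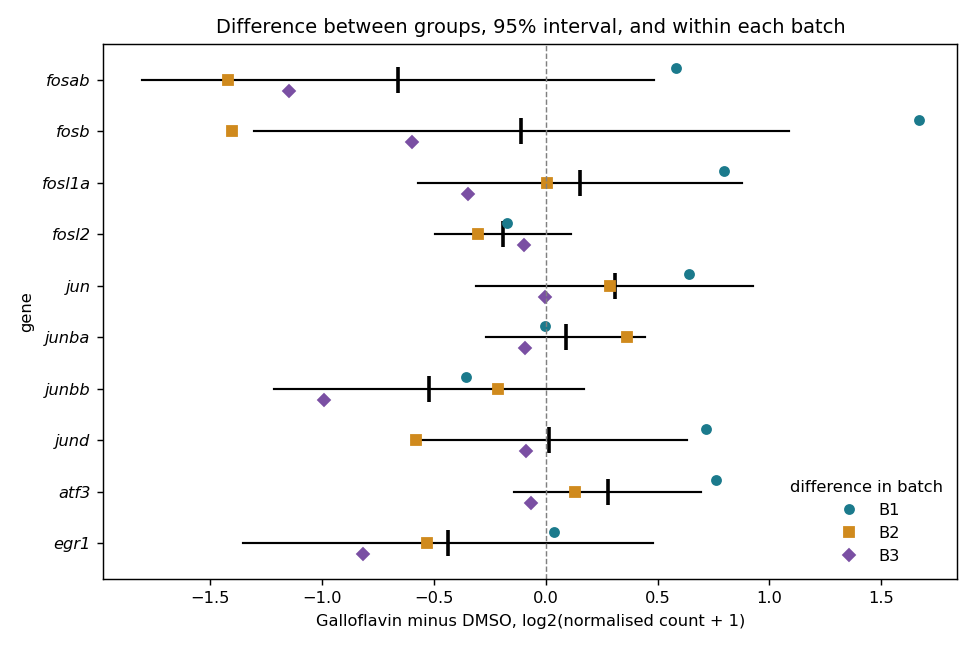
Difference between Galloflavin and DMSO in log2(normalised count + 1) for each gene, with the fitted value (vertical bar), its 95% interval from limma (line, n = 3 libraries per group) and the difference within each batch (symbols). All 10 intervals include 0, and the B3 symbols lie at or below 0 for all 10 genes, from -1.14 for fosab to -0.004 for jun.

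Batches disagreed on the sign, as they did for most genes. In B1, 3 of the 10 members were lower under Galloflavin (48.8% of all genes), in B2 6 (51.9%) and in B3 10 (49.9%), with median differences of 0.61, -0.26 and -0.22 where the medians of all genes lay between -0.02 and 0.01. A batch holds 1 library of each group, so a difference within it has no replicate, and whether the response differed between batches was not tested. The pairs of B1 and B2 rest on the labels. Deviations from group means correlated at 0.10 and 0.08 within them, but at 0.38 between DMSO B2 and Galloflavin B1. The sign differed among the batches for 8 of the 10 members, against 66.6% of all genes, and 2 members, fosl2 and junbb, were lower in all 3 batches, against 16.4%, while 0 were higher in all 3, against 17.0%. With batch as a block in the fit, junbb (unadjusted p = 0.0157, adjusted p = 0.402) and egr1 (0.0368 and 0.468) were under an unadjusted 0.05, 2 of 10 members where 10.0% of all genes were (4.11% lower), and no member passed.

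The library DMSO B1 held the lowest value of 7 of the 10 members (fosab, fosb, fosl1a, jun, jund, atf3 and egr1), while it held the lowest value of 13.6% of all genes. In 9 of the 10 members, all but junba, the highest DMSO library exceeded the lowest by a larger factor than in the Galloflavin group, and this held for 39.6% of all genes. For fosab the factor was 4.03 among DMSO and 1.39 among Galloflavin libraries, for egr1 3.07 and 1.69, and for fosl1a 2.30 and 1.37, where the medians over all genes were 1.25 and 1.31. For these 3 genes the factor rests on DMSO B1, their lowest DMSO library. Between the remaining DMSO libraries, B2 and B3, the factor was 1.15 for fosab, 1.57 for egr1 and 1.07 for fosl1a. For fosl2 it was 1.29 with and without DMSO B1. The factor between DMSO B2 and B3 exceeded that of the 3 Galloflavin libraries in 3 of the 10 members. A factor over 2 libraries cannot exceed that over all 3 DMSO libraries, so this count cannot be set against the 9. The counts were chosen after the values were seen. The neutrophil markers, 10 of 11 in the table and none at 0, also summed to their lowest value in DMSO B1 (162, against 208 in DMSO B2 and 457 in DMSO B3), with 266 to 496 in the Galloflavin libraries. Most of that sum was mmp9, a metalloproteinase gene also on the list of AP-1 targets. Without it DMSO B1 was at 57.8, DMSO B2 at 56.7, DMSO B3 at 125 and the Galloflavin libraries at 83.3 to 122. With mmp9 counted, DMSO B1 was the lowest library of 2 of the 10 genes, mmp9 and mpx, against 13.6% of all genes. Of the 9 neutrophil markers tested, mmp9 included, 8 were higher under Galloflavin (49.1% of all genes) and 1 lower. Of the 8, npsn, mpx and csf3r had log2 fold changes of only 0.01, 0.05 and 0.05. By batch the median difference of these markers was 1.02 in B1, 0.48 in B2 and -0.24 in B3. At an unadjusted limma p under 0.05, 3 were higher (4.18% of all genes), and 0 passed. The macrophage markers, all 11 in the table, summed to 3200 in DMSO B1 and 3203 in DMSO B2, 3867 in DMSO B3 and 4347 to 5605 under Galloflavin, mostly from apoeb, which encodes an apolipoprotein. Without apoeb they summed to 874, 809 and 1038 under DMSO and 740, 674 and 1159 under Galloflavin. Of the 10 macrophage markers tested, apoeb included, 6 were lower under Galloflavin and 4 higher (median -0.15). At an unadjusted limma p under 0.05, 2 were higher, mfap4.1 (0.95) and apoeb (0.72). At that p 2 were lower, c1qa (-0.79) and c1qb (-0.56), and 0 passed. Of all genes, 7.21% were under that p. The erythrocyte markers, 7 of 8 in the table, summed to their highest value in DMSO B1, 141. They were at 43.3 in DMSO B2, 46.5 in DMSO B3, and 51.0, 59.6 and 107 under Galloflavin. The part of these cells in the levels of the members was not tested.

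The levels were then compared among the 3 batches, with treatment as a term in the fit. No member passed (limma F test with 2 degrees of freedom, adjusted p = 0.171 to 0.922), and 5 of all genes did, which is 0.0316% (edgeR 0 genes, with 3 members and 11.9% of all genes at an unadjusted p under 0.05). At an unadjusted p under 0.05 there were 4 members, egr1 (0.00299), jun (0.00869), junbb (0.0126) and fosl2 (0.0482), and 12.6% of all genes. Of these, egr1 averaged 82.6, 135 and 196 normalised counts in B1, B2 and B3, and jun 162, 206 and 271, so that both were highest in B3, whereas fosl2 averaged 327, 317 and 263 and was lowest there. The gene junbb averaged 157, 277 and 251. Without Galloflavin B1, batch B1 held DMSO B1 alone, the lowest library of fosab, fosl1a and egr1. A test of batch in that fit cannot tell batch B1 from that library, so no conclusion is drawn from its calls.

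Some members had like profiles over the 6 libraries. Of the 45 pairs, 36 (80%) had a positive Pearson correlation of log2 values, with a median of 0.34, where 50% of all pairs of tested genes did. Above 0.8 were 3 pairs, 6.67%, against 4.15% of all pairs. The correlations share the same libraries, batches and treatment and are given as a description. The closest pairs were fosb with jund (0.92), fosab with egr1 (0.91) and fosl1a with atf3 (0.86), and jun and fosl2 were the most opposed (-0.88). The first pair was high in DMSO B2 and Galloflavin B1, the second in DMSO B3 and DMSO B2, and the third stood low in DMSO B1.

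Other genes were then ranked by the same correlation with each member, again over 6 libraries. The first gene of every member was at 0.970 or above, so a high value alone does not set a gene apart. Named genes above 0.9 ranged from 40 for fosl1a to 419 for fosl2. The share of all pairs above 0.9 was not computed, and shared control was not tested. Of 13161 named genes, 48 correlated with fosab above 0.9, and the first was nr4a1 (0.993), an orphan nuclear receptor and itself an immediate early gene. It had 8.93, 31.8 and 36.8 normalised counts under DMSO and 11.5, 11.6 and 16.7 under Galloflavin, the same order of libraries at the top as fosab. The next were ptprz1b (0.982) and arl4d (0.979). For egr1 the closest was ier2b (0.990), another immediate early gene, at 22.9, 39.9 and 58.7 under DMSO and 25.4, 32.4 and 35.2 under Galloflavin, followed by sfrp2l and mbtps1 (both 0.99). The closest to atf3 was pim1 (0.990), a serine/threonine kinase gene, then cflarb and capn10 (both 0.98). The closest to fosl1a were neo1a (0.974), socs3a (0.972), which encodes a feedback inhibitor of cytokine signalling, and pim3 (0.971). The profile of junba was matched by cib2 (0.996), elac2 (0.985) and ptgs2b (0.976), a cyclooxygenase gene that had 102.7 normalised counts in Galloflavin B2 and 18.5 to 27.3 in the other 5 libraries. The nearest to junbb were clmp, ids and plekhg5a (0.983, 0.981 and 0.972), to fosb plce1, myorg and tp53i11a (0.994, 0.983 and 0.982) and to jund cth, igfbp1a and usp11 (0.970, 0.969 and 0.959). The nearest to jun were dusp22a, sugp1 and sh3kbp1 (0.991, 0.986 and 0.984). For fosl2 they were cpeb4a, kdm8 and golgb1 (0.997, 0.995 and 0.995), with 419 named genes above 0.9.

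**Figure D3:**
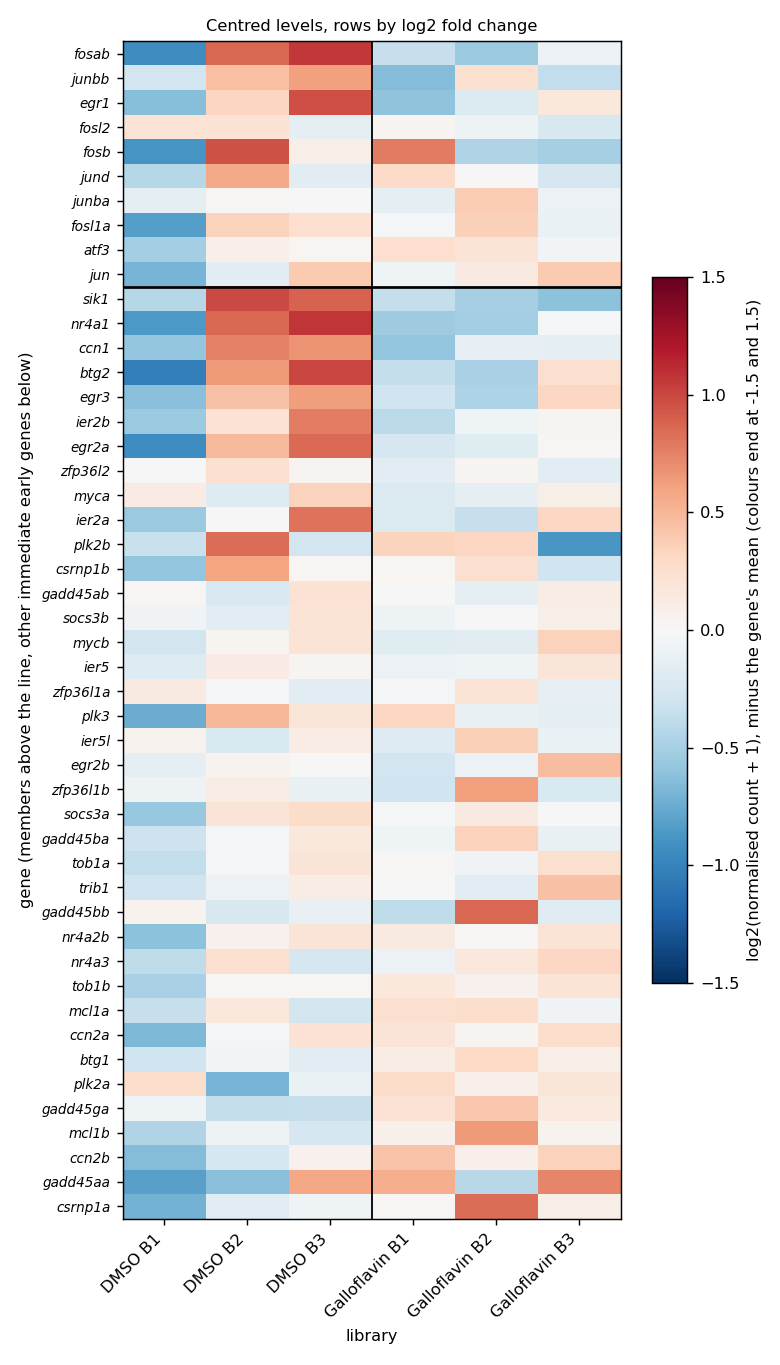
Level of the 10 genes (above the line) and of 38 other immediate early genes (below it) in the 6 libraries, as log2(normalised count + 1) minus the gene's mean, with rows ordered by the fold change within each block. The highest values of fosab, egr1, sik1, nr4a1 and btg2 are all in DMSO B2 or DMSO B3, and DMSO B1 is the lowest library of fosab, egr1, nr4a1 and btg2.

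The remaining immediate early genes, 38 tested of 45 listed, gave 25 higher and 13 lower means under Galloflavin and a median log2 fold change of 0.05, and 0 passed. Of all genes, 49.1% had a higher mean. By batch the list's median difference was 0.31 in B1, -0.04 in B2 and -0.09 in B3. Its genes in the table summed to 2667 normalised counts in DMSO B1 and to 3234 to 3762 in the other libraries. With the lowest p-values were gadd45ga (0.50 ± 0.13), a growth arrest gene, btg1 (0.33 ± 0.11), an antiproliferative gene, and mcl1b (0.51 ± 0.18), an inhibitor of apoptosis (adjusted p = 0.602 to 0.644). The fosab profile, higher under Galloflavin in B1 and lower in B2 and B3, was shown by 4 members (fosab, fosb, jund and egr1) and by 11 of the 38 genes, 28.9%, against 12.9% of all genes. The MAP kinase genes described below had a like share, 7 of 25 or 28%, and the MAP kinase phosphatases 2 of 9 or 22.2%. The profile was chosen after the values were seen, and the lists share the libraries in which they deviate. It also depends on the pairs of B1 and B2, which rest on the labels and not on the values. Among the 11 were the orphan receptor gene nr4a1, the antiproliferative gene btg2, egr2a, egr3, ier2a, ier2b and the kinase gene sik1. The gene sik1, a target of Creb in mammals, had 58.3, 157 and 146 normalised counts under DMSO and 61.3, 55.2 and 51.1 under Galloflavin (log2 fold change -0.97 ± 0.35, adjusted p = 0.653). The gene btg2 had 44.2, 142 and 184 under DMSO and 70.7, 64.6 and 107.6 under Galloflavin (-0.41 ± 0.50). Of the genes listed as mammalian AP-1 targets 2 of 27 showed this profile, 7.41%.

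Other leucine zipper factors were listed together with the coactivator gene crebbpa, which encodes no such factor. With it, 22 tested of 28 gave 12 higher, 10 lower, a median of 0.028 and 0 passing, and without it 21 of 27 gave 12 higher, 9 lower and a median of 0.032. The small Maf gene maff, whose product lacks a transactivation domain, had 27.0 ± 3.34 normalised counts under DMSO and 35.9 ± 2.90 under Galloflavin (0.40 ± 0.12, adjusted p = 0.602). The values were 0.37 ± 0.13 for cebpg and 0.41 ± 0.16 for nfe2l2a, the gene of the oxidative stress factor Nrf2. The fosab profile was shown by 2 of the 22 tested, jdp2b and jdp2a, or 9.09%, against 12.9% of all genes. The repressor gene jdp2b, a Jun dimerization partner named after its values were seen, had 12.7, 37.3 and 27.1 under DMSO. It had 15.7, 12.7 and 15.6 under Galloflavin (-0.66 ± 0.34).

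Upstream of AP-1, the MAP kinase genes, 25 tested of 29, gave 11 higher and 14 lower means with a median of -0.021, and 0 passed. The Jnk and p38 pathway kinase gene map3k4 was at -0.43 ± 0.12, the Erk kinase gene map2k1 at 0.38 ± 0.13, and mapk12b, below 2 normalised counts in every library, at 0.38 ± 0.16. The MAP kinase phosphatases, 9 tested of 12, gave 8 higher means and 1 lower, a median of 0.17, and 0 passing. Of all genes, again, 49.1% had a higher mean. The values were 0.45 ± 0.21 for dusp4, 0.30 ± 0.19 for dusp6, a feedback inhibitor of Erk, and 0.17 ± 0.11 for dusp16. By batch the median difference of the phosphatase list was 0.32 in B1, 0.05 in B2 and 0.04 in B3. Its genes in the table summed to 381 normalised counts in DMSO B1, against 569 to 588 in every other library. The part of DMSO B1 in the excess of higher means was not tested. Serum response factor genes and their partners, 9 of 9 tested, had a median of 0.086, which was -0.092 without batch B1, with mrtfab at 0.16 ± 0.11, elk3 at 0.11 ± 0.08 and srfb at -0.22 ± 0.17, and 0 passed.

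Downstream, genes listed as AP-1 targets in mammals, 27 tested of 30, gave 22 higher means (49.1% of all genes), 5 lower and a median of 0.16. Of these 0 passed. By batch the list's median difference was 0.29 in B1, 0.15 in B2 and 0.05 in B3. At an unadjusted limma p under 0.05, 5 were higher (4.18% of all genes) and 0 lower (3.03%). The median of the 10 members was -0.046, and the difference between these list medians was not tested. Whether each listed gene responds to AP-1 in the fin was not tested, and the listed inhibitor gene timp1 was not in the table. The hyaluronan receptor gene cd44a had 351 ± 23.3 normalised counts under DMSO and 474 ± 43.5 under Galloflavin (0.43 ± 0.10), the metalloproteinase inhibitor gene timp2b stood at 0.66 ± 0.18 and the urokinase gene plaub at 0.54 ± 0.16 (adjusted p = 0.602 for each). In DESeq2 with batch as a block, cd44a (adjusted p = 0.0357) and timp2b (0.01004) passed, as did mcl1b of the immediate early list (0.0357). In this list 1 gene passed the test of batch, fn1a, a fibronectin gene, at 2460 to 2596 normalised counts in B1 and B2 and 878 and 982 in B3. Genes of the integrated stress response, which induces atf3 through Atf4 in mammals, 13 of 13 tested, had a median of 0.13 with 0 passing, with ddit4 at 1.67 ± 0.52, atf5b at 0.31 ± 0.11 and ddit3 at 0.23 ± 0.12. Of these ddit4 was at 557 normalised counts in Galloflavin B2 and at 53.5 to 223 in the other libraries. Hypoxia response genes, 12 tested of 14, had a median of 0.74 that was 0.18 without that library, with batch medians of 0.05, 2.46 and 0.11. Among them bhlhe40 was at 0.92 ± 0.38, bnip3lb at 0.39 ± 0.18 and pgk1 at 0.65 ± 0.38, and 0 passed.

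**Figure D4:**
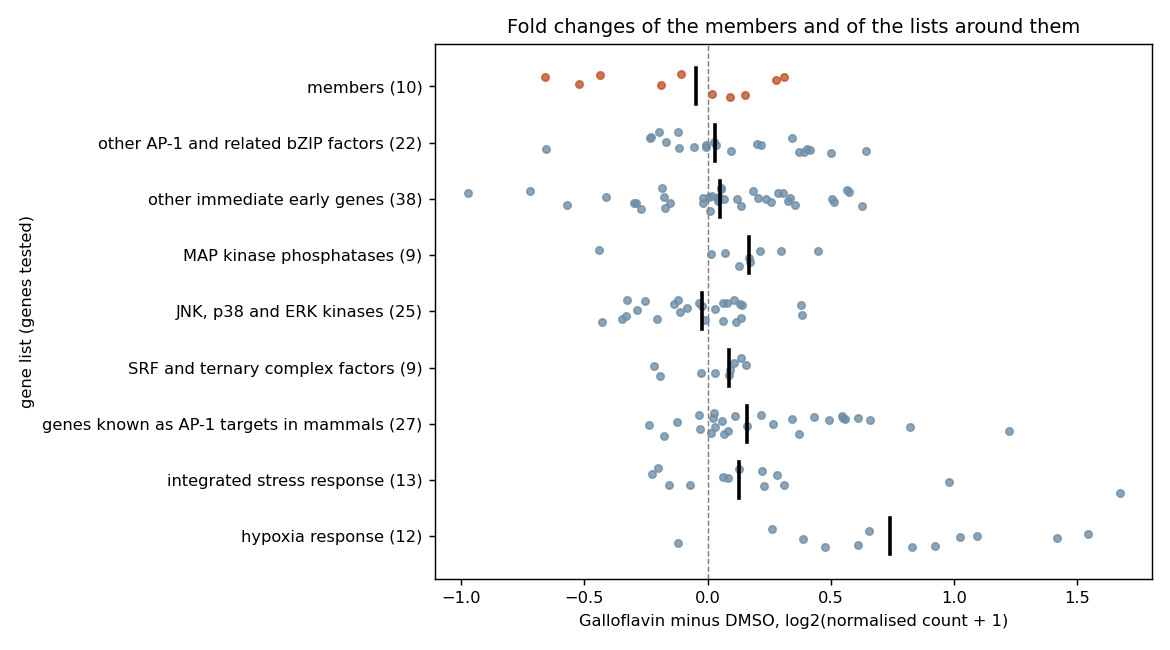
Log2 fold change (Galloflavin minus DMSO) of each gene tested, by list, with the list's median as a black bar and the number of genes in brackets. The 10 members run from -0.66 to 0.31 with a median of -0.046, and the genes listed as AP-1 targets in mammals have a median of 0.16.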

How the data were processed

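The submitters' processing notes name STAR 2.7.10a and GRCz11. Which program, gene set and scaling made the counts is not given in the sources used here. One table, deposited by the authors, holds a normalised count (a signal) per gene and library. Every value was a whole multiple of the library's smallest value above 0 (within 0.01 of a read for 100% of values), so whole reads were recovered, and the same reads scaled with TMM factors were 0.997 to 1.005 times the deposited values. One read was worth a normalised count of 0.0338 to 0.0543.

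Genes with a mean of at least 1 were tested as log2(normalised count + 1) with limma 3.58.1 in R 4.3.3 (trended moderated variances, two-sided, Benjamini-Hochberg over 15806 genes, threshold 0.05). This pseudocount understates changes of low genes. Alternatives used edgeR 4.0.16 and DESeq2 1.42.0. The scripts were tested on simulated data. Marker sums without 1 gene, DMSO factors without DMSO B1 and the leucine zipper list without crebbpa were added after the data were seen. Members and lists were chosen with earlier results of these data known. Text names all members, 3 genes of each list other than the markers with the lowest p, and the 3 most alike genes of each member. Any other gene given with values, markers included, was named after its values were seen.

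The sample titles give the mark rep B1, B2 or B3, which is treated here as a batch and pairs the libraries. Deviations from group means correlated at 0.10 (B1), 0.08 (B2) and 0.49 (B3) within a batch, but at 0.38 between DMSO B2 and Galloflavin B1 and 0.24 between DMSO B1 and Galloflavin B2, so the pairing in B1 and B2 rests on the labels and not on the values. Chi-square per degree of freedom between any 2 libraries was at least 11.1, so no library repeats another. Of 2175 identifiers with no symbol, 1485 were named from a table of gene names. The kit was stranded, per the labels' protocols, but counting is not stated to use strand, so antisense and overlapping genes are uncertain. Levels were not divided by gene length, so different genes' levels are not compared.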

Additional observations from a re-analysis of the deposited data

How the results depend on the processing

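No member passed in the comparison of Galloflavin with DMSO under any alternative run, including batch as a replicate block (0 members, 0 genes). The count of all genes that passed, 0, became 1 without batch B2, 83 with DESeq2 and 149 with DESeq2 and the replicate block, and stayed at 0 with edgeR, other pseudocounts and filters, median-of-ratios scaling and each library left out (0 to 0). The replicate block changed no call of a member. Of the list genes named, mcl1b (0.52), cd44a (0.43) and timp2b (0.66) passed DESeq2 with the block. Of 190 member fold changes under alternatives, 15 had the opposite sign. With libraries left out, fosb ranged from -0.58 to 0.34, fosl1a from -0.22 to 0.37, junba from -0.075 to 0.19 and jund from -0.19 to 0.31. Without a batch, fosb was -0.997 (B1), 0.54 (B2) and 0.13 (B3), fosl1a -0.17 (B1), junba -0.046 (B2) and jund -0.33 (B1). The gene jund was also -0.033 with edgeR and -0.030 with DESeq2. Of 323 list medians under alternatives, 11 moved beyond the SD of the batch medians; that of the serum response factor genes was -0.092 without batch B1. The 5 genes that passed the test of batch became 1 with a pseudocount of 5 or median-of-ratios scaling, 8 with no filter, and 0 with a minimum mean of 5 or edgeR, and with libraries left out 0 to 301, with 0 to 3 members. In the test of batch, each library left out leaves its batch with 1 library, and the test cannot tell that batch from that library. No conclusion is therefore drawn from the counts of genes and members in those runs. The cause of the other shifts was not tested. Counting error was at most 5.19% of a member's value in any library.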
